A study of Mus musculus with 12 samples.

Results

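Islet CD8 T cells of NOD mice that did not bind the tetramer were divided by the size of the T-cell clone they belonged to, and gene expression in expanded clones was compared with that in singlet clones. A cell entered when it had exactly 1 TCR α and 1 TCR β contig, fewer than 5% mitochondrial UMIs and 200 to 3500 detected genes, and a clone was the set of cells in 1 library with the same pair of CDR3 nucleotide sequences. Expanded clones held 5 or more cells and singlet clones 1 cell. By this rule, 2976 cells in 190 expanded clones and 4348 singlet cells were compared, 7324 of the 8475 paired tetramer-negative islet cells and of the 13667 paired cells of all 6 libraries of the series. The remaining 1151 cells, in 448 clones of 2 to 4 cells, served as a group in between. All cells came from NOD/ShiLtJ females 10 to 15 wk of age for which no other allele or treatment is stated, and were sorted as CD45.1+ CD8+ cells that lacked CD4, B220 and CD11b and did not bind a Kd tetramer with the NRP-V7 mimotope of an IGRP peptide, a β-cell antigen. Each of 2 rounds pooled the islets of 10 mice into 1 scRNA-seq and 1 scTCR-seq library. Cells could not be traced to a mouse, so the round is the replicate, all p-values rest on these 2 pools, and a clone could span mice.

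A CD8 T cell that meets its antigen divides, and its descendants carry the same rearranged α and β chains, so paired TCR sequences mark kinship and the number of cells recovered is a readout of past division. Naive cells recirculate through lymph nodes with the help of CCR7, whereas cells that keep meeting antigen in a tissue acquire coinhibitory receptors such as PD-1 (Pdcd1), LAG-3 and TIM-3 (Havcr2) and the transcription factor TOX. In NOD mice, islets are infiltrated by CD8 T cells of many specificities before diabetes, and a tetramer-negative sort leaves out cells that bind the tetramer, as far as the sort separates them.

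The clones themselves are shown by their CDR3 regions, from the rearranged TCR α gene (constant gene Trac, chromosome 14, 54220521 to 54224206, plus strand, mm10) and TCR β gene (constant genes Trbc1 and Trbc2, chromosome 6, 41538218 to 41548352, plus strand). Clones were numbered by size within a round, so that R1-1 is the largest clone of Round 1, with 232 cells, and R2-1 the largest of Round 2, with 96 cells. R1-1 combined TRAV6N-7 and TRAJ18 with TRBV16 and TRBJ2-2, and R2-1 combined TRAV5-1 and TRAJ15 with TRBV1 and TRBJ1-3. Their CDR3 sequences, 5′ to 3′, are shown because these clones contribute the most cells.
R1-1 α: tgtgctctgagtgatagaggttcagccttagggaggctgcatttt
R1-1 β: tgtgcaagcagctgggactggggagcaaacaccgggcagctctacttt
R2-1 α: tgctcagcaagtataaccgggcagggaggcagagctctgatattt
R2-1 β: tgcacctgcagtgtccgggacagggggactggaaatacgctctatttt

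A second set shows how close the receptors of separate clones could be. R2-2, with 75 cells, and R2-12, with 34 cells, used the same 4 segments, TRAV14N-3 with TRAJ12 and TRBV3 with TRBJ1-5. The CDR3 lengths were equal, 36 bases for α and 39 bases for β. Capitals mark the bases that differ, 1 in the α chain and 3 in the β chain, and the encoded proteins differed at 1 residue in each chain.
R2-2 α: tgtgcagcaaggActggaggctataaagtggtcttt
R2-12 α: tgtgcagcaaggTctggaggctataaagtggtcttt
R2-2 β: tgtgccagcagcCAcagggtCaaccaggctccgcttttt
R2-12 β: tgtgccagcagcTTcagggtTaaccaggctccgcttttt

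Expanded clones numbered 74 in Round 1 and 116 in Round 2, with a median of 8 and 10 cells. The largest clone held 19.8% of the expanded cells of Round 1 and 5.32% of those of Round 2, and the 5 largest held 42.7% and 19.6%. At the threshold, 17 and 21 clones had 5 cells and counted as expanded, whereas 29 and 39 clones had 4 cells and did not. An exact α and β pair was found in 46.5% and 61.4% of the cells that passed the filters, so cells of a clone could be left uncounted. A singlet is a clone seen once in this sample of cells. Since a clone could span mice, cells of separate origin could also be counted together.

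The 4 sums held 6461147 and 9311807 UMIs for expanded clones (1172 and 1804 cells) and 6092944 and 12209755 UMIs for singlet clones (1389 and 2959 cells). Cells of expanded clones were richer in RNA, with medians of 4710 and 4434 UMIs against 3811 and 3731 in singlet clones, and 1777.5 and 1828 genes against 1357 and 1480. The limit of 3500 genes therefore fell unevenly and removed 7.83% and 10.2% of the cells that would otherwise have been in expanded clones but 1.84% and 0.808% of those in singlet clones. Median mitochondrial shares were alike, 2.73% and 1.65% in expanded clones and 2.89% and 1.87% in singlet clones. The 2 libraries shared 77 barcodes. The sorted cells carried the CD8 T-cell identity in their label, with a summed level of 10 CD8 T-cell markers of 7301 and 7540 CPM in expanded and 4890.4 and 4970 CPM in singlet clones, while Cd4 stood at 0 to 0.410 CPM. CPM here is the UMIs of a gene per 1000000 UMIs of its sum.

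Expanded and singlet clones differed in 652 of 10822 genes tested (6.02%), 349 higher and 303 lower in expanded clones (3.22% and 2.8% of the genes tested; edgeR's quasi-likelihood test on the 4 sums, Benjamini-Hochberg adjusted p under 0.05). The genes that rose included coinhibitory receptors, transcription factors of effector and exhausted cells, tissue chemokine receptors and cell cycle genes, and the genes that fell were led by those of naive and recirculating cells. Of the 78 genes named by a common rule, 40 rose and 23 fell, and in all 63 the 2 expanded sums lay outside the range of the 2 singlet sums, as they did for 55.7% of all genes tested (38.3% higher and 17.3% lower). The expanded and singlet sums of a round come from the same library and deviated together (r = 0.73 across genes), and with the round as a block 2609 genes were higher and 2377 lower (46.1% of the genes tested, 24.1% higher and 22% lower). All 63 calls among the named genes kept their direction and passed the threshold with the block. Block p-values measure the spread left after the shift that the sums of a round share. With only 4 sums that spread is estimated largely across genes, so very small values do not measure the spread between 2 pools alone. Without the singlet sum of Round 2 the counts were 48 and 77, and without the expanded sum of Round 1 they were 201 and 171. Scaling by total counts in place of TMM moved the median log2 change by 0.17 and gave 472 higher and 198 lower, so changes below are relative to the median gene, and the ratio of 2 printed CPM values runs above the fitted change by about that shift. In such sums, fewer cells of a kind and less RNA per cell cannot be told apart.

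Genes of naive cells and of lymph node homing fell most. Of 16 tested genes on this list, 12 fell and 0 rose, with a median log2 change of -2.69 against -0.01 over all genes. Ccr7, the chemokine receptor that guides cells into lymph nodes, was at 110.5 and 222 CPM in expanded clones (Rounds 1 and 2) and at 813 and 1580.3 CPM in singlet clones. The sums did not overlap between the groups, and the log2 change was -3.01 ± 0.44 (SE, adjusted p = 0.0366). Klf2, the factor that maintains S1pr1 expression, fell by 2.46 on the log2 scale, from 683 and 885 CPM in singlet clones to 135 and 186 CPM. Lef1, a partner of TCF-1 in naive cells, was at 36.2 and 26.4 CPM in expanded clones against 440 and 391 CPM in singlet clones (log2 change -3.90 ± 0.28), and Lef1os1, which overlaps it on the opposite strand so that its reads are uncertain, had a log2 change of -4.18 ± 0.27.

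The largest fall of all named genes was that of Igfbp4, a binding protein of insulin-like growth factors that is a marker of naive T cells (chromosome 11, 99041244 to 99054392, plus strand, mm10). Igfbp4 was near the detection limit in both expanded sums, 1.24 and 1.18 CPM, and at 136 and 157 CPM in singlet clones (log2 change -7.08 ± 0.19, adjusted p = 0.00481). Dapl1, another marker of resting CD8 T cells, was at 5.88 and 3.22 CPM against 80.9 and 79.1 CPM, and Ccr9, a gut homing receptor, at 0.619 and 1.07 CPM against 15.1 and 18.4 CPM. Il7r, the receptor chain for the survival cytokine IL-7, was at 32.0 and 53.3 CPM against 288 and 283 CPM (log2 change -2.92 ± 0.26, adjusted p = 0.0205). Ifngr2, the signaling chain of the IFN-γ receptor, was the second largest fall, at 2.94 and 1.18 CPM against 74.8 and 95.7 CPM (log2 change -5.58 ± 0.44). The 10 largest falls also held Lcn4, Pik3ip1, an inhibitor of PI3-kinase, Atp1b1, a subunit of the sodium pump, and Tdrp, with log2 changes of -4.50, -4.19, -4.10 and -3.97. For each of these 4 genes the expanded sums were at most 5.73 CPM and the singlet sums at least 15.8 CPM.

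Coinhibitory receptors rose. Of 14 tested, 8 rose and 0 fell, with a median log2 change of 1.70, and with the block 12 rose. Pdcd1, which encodes PD-1, was at 497 and 473 CPM in expanded clones and at 115 and 95.2 CPM in singlet clones (log2 change 2.03 ± 0.22, adjusted p = 0.0231). Lag3 was at 302 and 376 CPM against 70.4 and 59.6 CPM, and Tigit at 620.2 and 652 CPM against 194 and 195 CPM. All of these pairs of rounds were close and the groups were far apart. The steepest rises on the list were in Entpd1, which encodes the ectonucleotidase CD39 of chronically stimulated T cells (58.2 and 76.2 CPM against 4.43 and 6.96 CPM, log2 change 3.37 ± 0.23, adjusted p = 0.0151), and in Havcr2, which encodes TIM-3 (36.5 and 63.8 CPM against 5.91 and 4.67 CPM, log2 change 3.08 ± 0.34). Cd38, an enzyme that consumes NAD, rose by a log2 change of 2.24 ± 0.38. Among costimulatory receptors and TNF family genes, 3 of 11 rose and 0 fell (median 0.52): Tnfsf4, the ligand OX40L, Tnfrsf9, the receptor 4-1BB, and Tnfrsf4, the receptor OX40, with log2 changes of 2.09, 1.84 and 1.39.

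**Figure D1:**
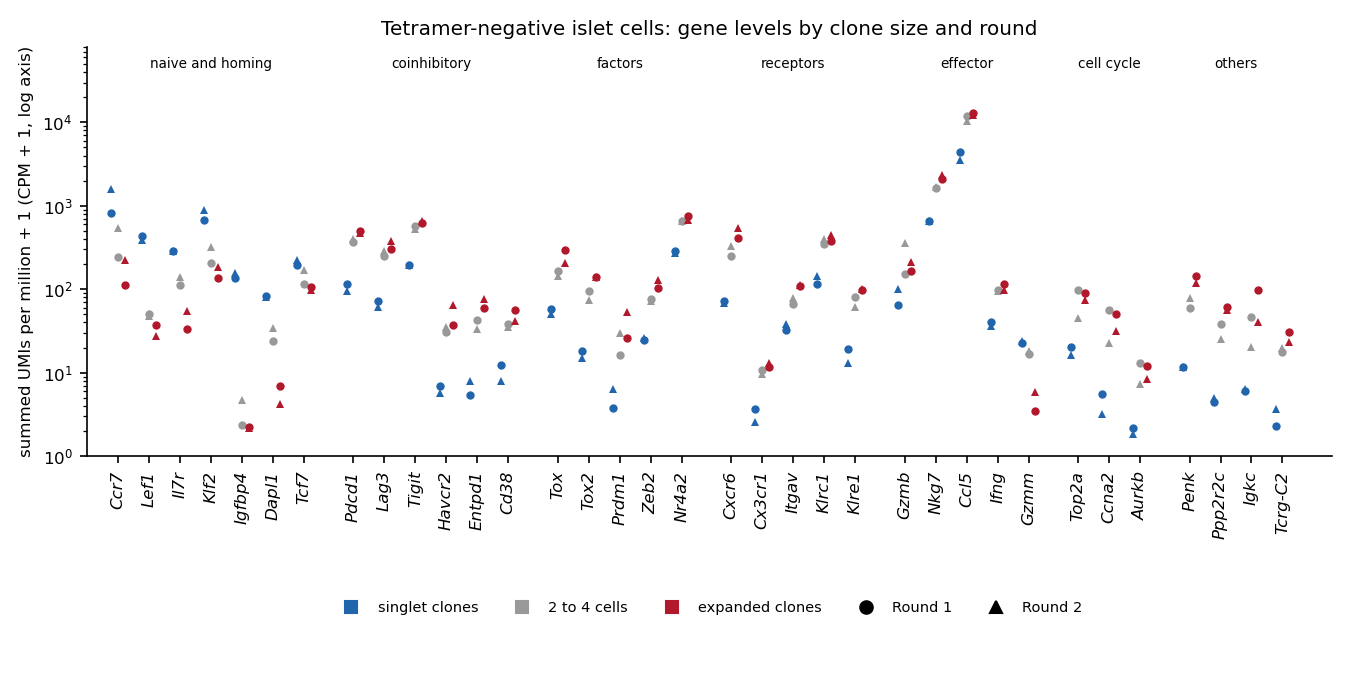
CPM plus 1 (log axis) for a selection of the named genes, grouped by function, in singlet clones (blue), clones of 2 to 4 cells (grey) and expanded clones (red), with a circle for Round 1 and a triangle for Round 2. Naive and homing genes lie highest in singlet clones and coinhibitory receptors highest in expanded clones, and Gzmb of Round 2 is highest in clones of 2 to 4 cells, at 359 CPM.

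Transcription factors of effector and exhausted T cells also rose, 12 of 20 tested with 0 falling (median log2 change 1.31), and 17 with the block. Tox, a driver of the exhausted state, was at 291 and 208 CPM in expanded and 56.8 and 49.7 CPM in singlet clones (log2 change 2.07 ± 0.27, adjusted p = 0.0325). Its relative Tox2 was at 138 and 138 CPM against 17.4 and 13.9 CPM (log2 change 2.97 ± 0.22). Prdm1, which encodes Blimp-1, a factor of terminal differentiation, was low but rose the most on this list, from 2.79 and 5.32 CPM to 25.1 and 52.6 CPM (log2 change 3.05 ± 0.44). Zeb2, a factor of short-lived effector cells, and Nr4a2, a nuclear receptor induced by TCR signals, rose by log2 changes of 2.09 ± 0.15 and 1.20 ± 0.19.

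Genes of stemness and memory moved less than the naive genes. Of 14 tested, 4 fell and 0 rose (median log2 change -0.44), and Il7r, which is on both lists, is among these 4. With the block, 9 fell and 3 rose. Tcf7, which encodes TCF-1 and is kept by progenitors of exhausted cells, was at 106 and 98.2 CPM in expanded clones and 195 and 223 CPM in singlet clones, a log2 change of -1.19 ± 0.15 (adjusted p = 0.0286). Tcf7 was therefore lower but still at over 98 CPM in both expanded sums. Myb, a factor of stem-like cells, fell by 1.39 on the log2 scale. Slamf6, a surface marker of progenitors, was at 61.4 and 69.9 CPM against 86.8 and 87.2 CPM, which missed the threshold (log2 change -0.58 ± 0.14, adjusted p = 0.0824) and passed it with the block (adjusted p = 0.000346).

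Receptors for tissue chemokines were higher in expanded clones, 4 of 8 tested with 0 falling (median log2 change 1.31). Cxcr6, a receptor of tissue-resident T cells (chromosome 9, 123806475 to 123811760, plus strand, mm10), was at 411 and 536 CPM in expanded and 70.4 and 67.0 CPM in singlet clones (log2 change 2.61 ± 0.18, adjusted p = 0.0151). Cx3cr1, the fractalkine receptor of effector cells, and Ccr8, a receptor of skin and tumor T cells, rose by log2 changes of 2.33 ± 0.36 and 1.56 ± 0.23. Both Cxcr6 levels in expanded clones lay far above both in singlet clones. Of 12 adhesion and retention genes, 2 rose, the integrin chains Itgav (1.505 ± 0.14) and Itga4 (1.01 ± 0.16), and 1 fell. The gene that fell was Cd69, which retains cells in tissue and is induced early by TCR signals, at 225 and 223 CPM in expanded clones and 367 and 400 CPM in singlet clones (log2 change -0.94 ± 0.14, adjusted p = 0.038). Cd44, a marker of antigen experience, was at 102 and 145 CPM against 53.8 and 58.6 CPM, with an adjusted p of 0.0526, and of 3.46e-05 with the block.

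Among 9 killer lectin-like receptors tested, 3 rose and 0 fell (median log2 change 1.01): Klre1, Klrc1, the NKG2A chain, and its partner Klrd1, which encodes CD94, with log2 changes of 2.52, 1.54 and 0.83. Klrc1 was at 382 and 452 CPM in expanded and 114 and 142 CPM in singlet clones. Some members of this family are near copies of each other, so the division of reads between those members is uncertain. Of 13 S100, galectin and annexin genes, 7 rose and 0 fell (median 1.29), among them S100a4 and the galectins Lgals1 and Lgals3, with log2 changes of 2.40, 2.04 and 1.98. Lgals1 was at 1638 and 1749 CPM in expanded and 389 and 342 CPM in singlet clones.

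Cytotoxic effector genes did not move as 1 group. Of 14 tested, 5 rose and 1 fell (median log2 change 0.23). Nkg7, a granule membrane protein, was at 2113 and 2308 CPM in expanded and 665 and 653 CPM in singlet clones (log2 change 1.57 ± 0.19, adjusted p = 0.0272), and Tnfsf10, the death ligand TRAIL, rose by a log2 change of 1.66 ± 0.20. Gzmm, a granzyme, went the other way, at 2.48 and 4.94 CPM in expanded clones and 21.5 and 22.9 CPM in singlet clones (log2 change -2.73 ± 0.32, adjusted p = 0.0268). Gzmb, the main apoptosis-inducing granzyme of killer cells, was at 165 and 210.1 CPM against 63.5 and 99.1 CPM, and missed the threshold (log2 change 1.05 ± 0.21, adjusted p = 0.0594), which it passed with the block (adjusted p = 4.39e-06). Gzma, named after its values were seen, was at 135 and 91.4 CPM in expanded, 134 and 194 CPM in singlet and 217 and 516 CPM in clones of 2 to 4 cells.

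Of 9 effector cytokines tested, 2 rose and 0 fell (median log2 change 1.34). Ifng was at 114 and 97.6 CPM in expanded and 39.4 and 35.1 CPM in singlet clones (log2 change 1.34 ± 0.20, adjusted p = 0.038), and Tgfb1, a regulatory cytokine, rose by a log2 change of 1.37 ± 0.16. Of 6 chemokines, 0 passed the threshold in either direction and 5 rose with the block, with a median log2 change of 1.59. Ccl5 made up 13014 and 12193 CPM of expanded sums against 4429 and 3537 CPM of singlet sums (adjusted p = 0.0521, and 5.34e-08 with the block). Xcl1, which attracts cross-presenting dendritic cells, was at 538 and 541 CPM against 171 and 106 CPM (adjusted p = 0.0509).

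The early genes of TCR signaling, as listed, did not follow the coinhibitory receptors. Of 18 tested, 2 fell and 0 rose (median log2 change -0.26), Cd69 and Ier2, the latter named after its values were seen. With the block, 9 fell and 2 rose, against 22% lower and 24.1% higher over all genes tested. Nr4a2, also induced by TCR signals, was counted on the list of effector and exhaustion factors, where it rose. Some genes on the TCR list also served as stress genes of dissociation. Nr4a1, a reporter of recent TCR signals, was at 171 and 224 CPM in expanded and 166 and 186 CPM in singlet clones, so the groups overlapped (log2 change -0.00 ± 0.15, adjusted p = 0.99, and 0.983 with the block). Junb and Jund, subunits of AP-1, had log2 changes of -0.39 ± 0.23 and 0.03 ± 0.61, and Junb fell with the block (adjusted p = 5.08e-05). None of the 12 anergy genes passed the threshold (median 0.02), with 4 rising and 4 falling with the block. The study's 3 anergy markers were at log2 changes of -0.16 ± 0.14 for Cblb, -0.06 ± 0.24 for Itpkb and -0.96 ± 0.20 for Dgka. Dgka, a kinase that ends diacylglycerol signals, fell with the block only (adjusted p = 0.062 without it and 2.1e-06 with it), as did Cblb (0.551 and 0.0433). Cblb was at 286 and 330 CPM in expanded and 273 and 342 CPM in singlet clones, so the groups overlapped. With total counts in place of TMM its log2 change was 0.000575.

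Of 16 cytokine receptor subunits tested, 5 fell and 1 rose (median log2 change -0.41), with Il6ra (-3.39 ± 0.21), Il7r and Il12rb2 (-2.79 ± 0.28), the inducible chain of the IL-12 receptor, falling the most. Il12rb2 was at 4.33 and 7.84 CPM in expanded and 33.3 and 42.4 CPM in singlet clones. Interferon-stimulated genes were lower in 3 of 21 cases and higher in 0 (median -0.49), and the 3 were Iigp1, Irf1 and Gbp4. With the block, 14 fell and 2 rose. Irf1, a factor that transmits interferon signals, was at 150.3 and 162 CPM against 401 and 503 CPM (log2 change -1.69 ± 0.15).

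**Figure D2:**
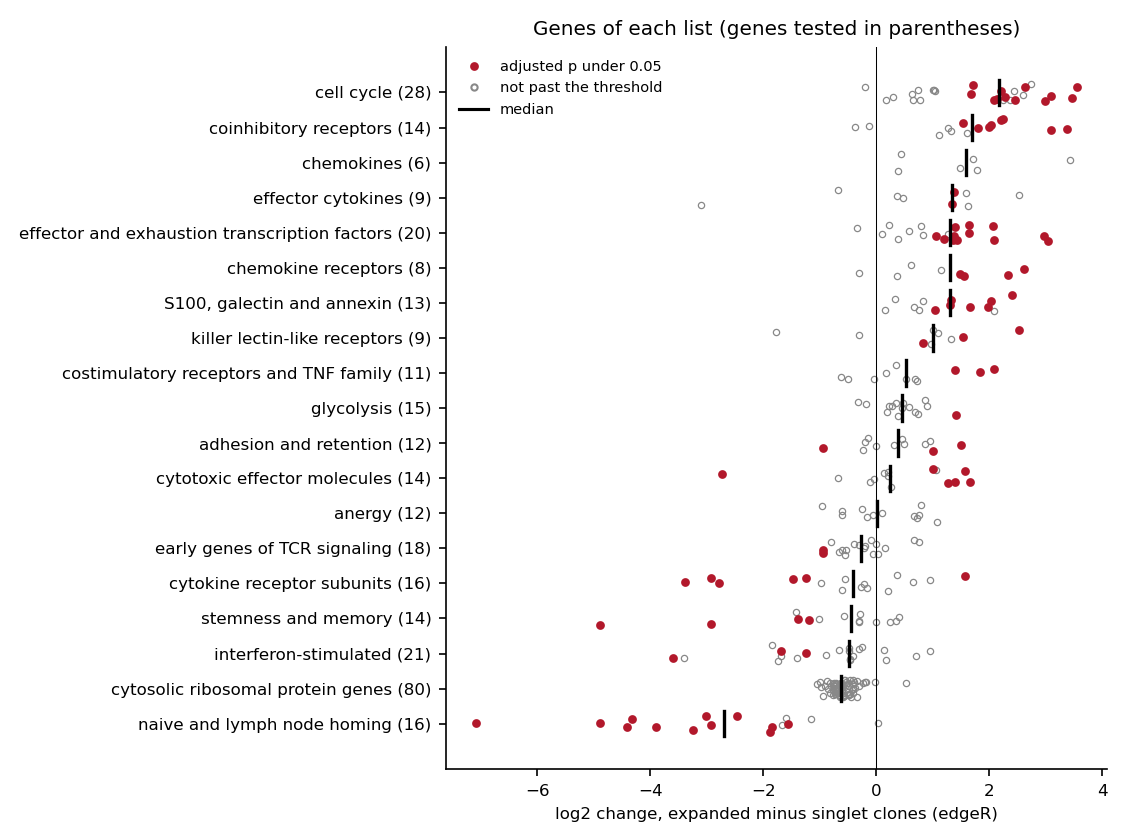
Log2 change between expanded and singlet clones of every tested gene on 19 lists (points), with the genes past the threshold filled in red and the median of each list as a bar. The lists run from naive and lymph node homing, with a median of -2.69, to the cell cycle, with a median of 2.17, and every one of 13 S100, galectin and annexin genes has a change above 0.

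Cell cycle genes had the highest median of the lists, 2.17. Of 28 tested, 12 rose and 0 fell, and with the block 27 rose. Top2a, a topoisomerase of dividing cells, was at 89.6 and 72.9 CPM in expanded and 19.4 and 15.2 CPM in singlet clones (log2 change 2.07 ± 0.26, adjusted p = 0.0294). Ccna2, the S and G2 cyclin, was at 49.5 and 30.7 CPM against 4.596 and 2.21 CPM, and the mitotic kinases Plk1 and Aurkb rose by log2 changes of 3.55 and 3.10. Spc24, a part of the kinetochore, was among the 10 largest rises, at 34.5 and 32.8 CPM against 3.77 and 3.44 CPM. Leaving out cells with an Mki67 or Top2a UMI, 313 genes rose and 248 fell (3.02% and 2.39% of the genes tested, 5.41% together). Glycolysis genes rose in 1 of 15 cases (median 0.45). Ribosomal protein genes passed the threshold in 0 of 80 cases (median -0.62), with log2 changes of -0.99 ± 0.25 for Rps24 and -0.44 ± 0.23 for Rpsa, and with the block 78 fell and 1 rose.

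The largest rises included genes outside any of the lists. The largest of all named genes was that of Ppp2r2c, a regulatory subunit of protein phosphatase 2A (ENSMUSG00000029120, chromosome 5, 36868513 to 36955078, plus strand, mm10). Ppp2r2c was at 59.7 and 55.5 CPM in expanded clones, 37.7 and 24.0 CPM in clones of 2 to 4 cells and 3.45 and 4.01 CPM in singlet clones (log2 change 3.78 ± 0.19, adjusted p = 0.0151). Penk, which encodes the precursor of the enkephalin peptides (chromosome 4, 4133531 to 4138819, minus strand), was at 144 and 116 CPM against 10.7 and 10.6 CPM (log2 change 3.45 ± 0.22, adjusted p = 0.0151). The rounds were close for both genes. Cd80, better known as a ligand of CD28 on antigen-presenting cells, was at 25.8 and 23.5 CPM against 2.95 and 2.05 CPM, and 2900026A02Rik, a protein-coding gene on chromosome 5, at 20.3 and 20.2 CPM against 1.97 and 1.47 CPM.

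Transcripts of antigen receptor loci other than TCR α and β were also among the 10 largest rises. Igkc, the constant gene of the immunoglobulin κ chain (chromosome 6, 70726435 to 70726966, plus strand, mm10), was at 97.4 and 40.1 CPM in expanded clones and 5.09 and 5.32 CPM in singlet clones (log2 change 3.58 ± 0.55, adjusted p = 0.038). A UMI of Igkc was found in 234 of 1172 and 195 of 1804 expanded cells and in 19 of 1389 and 26 of 2959 singlet cells, and at most 22 UMIs were in 1 cell. Of the defining B-cell markers, Cd79a and Ms4a1 were at 0 in both expanded sums, and Ighm was lower in expanded clones, at 17.6 and 12.99 CPM against 74.5 and 51.5 CPM. Tcrg-C2, a constant gene of the γ chain locus (chromosome 13, 19304649 to 19307551, minus strand), was at 29.6 and 22.3 CPM against 1.31 and 2.70 CPM (log2 change 3.47 ± 0.37), while the γδ marker Trdc was at 0 to 1.72 CPM and the NK marker Ncr1 at 0 to 0.107 CPM in expanded sums. The constant genes of the γ locus are near-copies of each other, so which of them the reads belong to is uncertain.

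The levels of markers of other cells are given here because some moved with clone size. Their part in the results was not tested, apart from a fit below that left out cells with some of these markers. Exocrine markers, all 12 of them detected, summed to 73.4 and 390.4 CPM in expanded and 144 and 754 CPM in singlet clones, higher in Round 2 in both groups. Endocrine markers summed to 5.57 and 6.55 CPM against 1.15 and 1.64 CPM, and an Ins2 UMI was found in 0.768% and 0.942% of expanded and 0.216% and 0.237% of singlet cells. Myeloid markers summed to 30.5 and 34.3 CPM against 10.0 and 9.50 CPM, with Adgre1 and Csf3r at 0 in all 4 sums and Cd68 making up 25.8 and 24.3 CPM of the expanded level. B-cell markers summed to 20.1 and 15.6 CPM against 81.4 and 57.2 CPM, mostly Ighm, and stromal markers to 7.12 and 5.48 CPM against 33.8 and 35.2 CPM, mostly Pecam1. The γδ and NK markers summed to 35.8 and 25.7 CPM against 3.77 and 3.93 CPM, mostly Tcrg-C2. Stress genes of dissociation were at 1231 and 1918 CPM against 1149 and 1922 CPM, with the rounds further apart than the groups. Leaving out cells with any B-cell or myeloid marker UMI, or with 1% or more exocrine UMIs, left 386 of 10479 genes higher and 323 lower. That kept 945 and 1491 expanded and 989 and 2317 singlet cells. The cut is not specific to other cell types, since an Ighm UMI alone was in 24.3% and 16.7% of singlet cells.

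Clones of 2 to 4 cells were set against both ends to see where along clone size the differences lay. Against singlet clones, 120 genes were higher and 64 lower in clones of 2 to 4 cells (1.11% and 0.594%, together 1.71%, of 10783 genes tested, edgeR, 6 sums). Expanded clones against clones of 2 to 4 cells gave 0 genes in either direction with 460 genes at an unadjusted p under 0.05. With the round as a block, 1688 genes were higher and 1339 lower at the first step, from singlet clones to clones of 2 to 4 cells (15.7% and 12.4%, together 28.1%), and 150 were higher and 260 lower at the second, from there to expanded clones (1.39% and 2.41%, together 3.8%). Of the 63 named genes that differed between the ends, 53 had their level in clones of 2 to 4 cells between the 2 ends in both rounds. These genes were picked for a difference between the ends and the share over all genes was not counted, so this is a description only. Pdcd1, for instance, was at 364 and 402 CPM in clones of 2 to 4 cells, between 115 and 95.2 CPM in singlet and 497 and 473 CPM in expanded clones. Of the 16 naive and homing genes, with the block, 15 fell at the first step and 11 at the second, against 9 and 0 without it. Of the 20 effector and exhaustion factors, with the block, 18 rose and 0 fell at the first step and 9 rose and 1 fell at the second, and without it 6 rose at the first. Of the 14 cytotoxic genes, with the block, 10 rose and 1 fell at the first step and 1 rose and 5 fell at the second, and without it 3 rose at the first. Gzma was 1 of the 5 cytotoxic genes that fell at the second step, with a log2 change of -1.66 ± 0.26 between clones of 2 to 4 cells and expanded clones (edgeR with the block, adjusted p = 0.00271). Klrg1, a receptor of short-lived effector cells that was named after its values were seen, was also highest in clones of 2 to 4 cells, at 17.96 and 16.8 CPM against 8.20 and 9.88 CPM in expanded and 3.77 and 4.42 CPM in singlet clones.

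**Figure D3:**
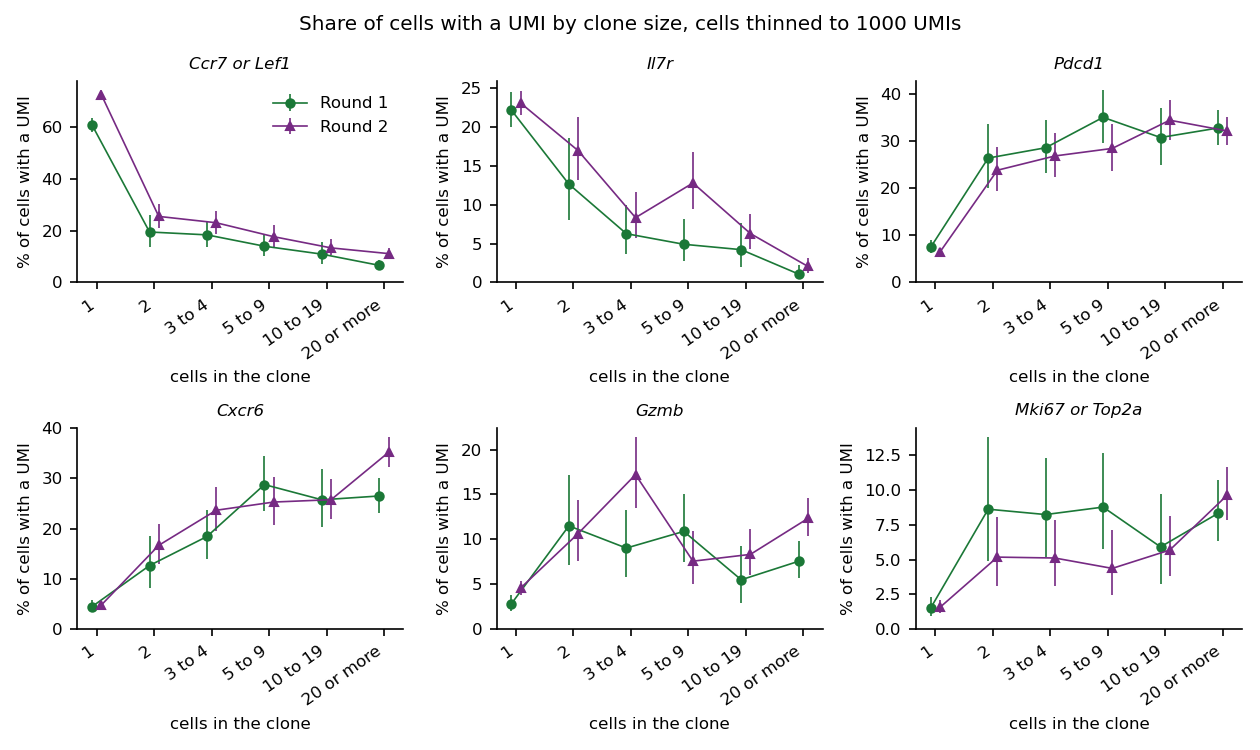
Percent of cells with at least 1 UMI of the named gene or genes, after each cell was thinned to 1000 UMIs, by the number of cells in the clone (1, 2, 3 to 4, 5 to 9, 10 to 19, 20 or more), for Round 1 (green circles) and Round 2 (purple triangles), with exact 95% binomial intervals. The first step from 1 to 2 cells is the steepest for Ccr7 or Lef1, which falls from 60.9% and 72.7% to 19.5% and 25.6%.

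The same was described cell by cell, as how many held at least 1 UMI once each had been thinned to 1000 UMIs, because expanded clones have deeper cells. The 6 and 3 cells under 1000 UMIs were left out. Intervals are exact Clopper-Pearson 95% intervals and cover counting error only, and cells of 1 clone are not independent. A UMI of Ccr7 or Lef1 was found in 60.9% (58.3 to 63.5%) and 72.7% (71.1 to 74.3%) of singlet cells, in 19.5% and 25.6% of cells whose clone had 2 cells, and in 6.63% (4.84 to 8.82%) and 11.2% (9.26 to 13.3%) of cells in clones of 20 or more. Each step toward larger clones had a lower share in both rounds. Il7r fell from 22.2% and 23.1% of singlet cells to 1.08% and 2.07% of cells in clones of 20 or more, with 1 exception to the order in Round 2, where clones of 5 to 9 cells stood at 12.8% and clones of 3 to 4 cells at 8.33%.

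Pdcd1 rose mostly at the first step, from 7.504% and 6.46% of singlet cells to 26.4% and 23.9% of cells in clones of 2, and stood at 32.8% and 32.2% in clones of 20 or more. Cxcr6 rose over more steps, from 4.47% and 4.77% through 12.6% and 16.7% in clones of 2 cells to 26.5% and 35.2% in clones of 20 or more. A UMI of Mki67 or Top2a, genes of dividing cells, was found in 1.52% and 1.56% of singlet cells, 8.62% and 5.17% of cells in clones of 2, and 8.32% and 9.63% of cells in clones of 20 or more. The intervals of all size classes above 1 cell overlapped in Round 1 for these cycling genes. Gzmb had no such order: in Round 2 it peaked in clones of 3 to 4 cells, at 17.2% (13.5 to 21.4%), against 4.57% in singlet cells and 12.3% in clones of 20 or more, and in Round 1 the classes above 1 cell ran between 5.49% and 11.5%. Only 18 and 15 of the filtered cells had no UMI of any CD8 T-cell marker, too few to measure the level of free RNA in a cell type that lacks these genes.

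With all UMIs counted, Ccr7 or Lef1 was found in 83.2% and 88.0% of singlet cells and in 28.2% and 31.4% of expanded cells, and the comparison was repeated without these cells, a step chosen after seeing the data. That left 841 and 1238 expanded cells and 234 and 354 singlet cells. Without the block, 0 of 9390 genes passed the threshold in either direction (edgeR), with 856 genes at an unadjusted p under 0.05, and with the block 739 were higher and 717 lower (15.5%). Of the 70 named genes that had a value in this comparison, 55 had been called in all cells. Of these 55, 46 were called in the same direction with the block, and 52 had a smaller change than in all cells. Many of them were picked for a large change in all cells, and neither count was made over all genes, so both are a description only.

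Among these cells, with the block, Pdcd1, Cxcr6 and Tox were again higher in expanded clones. Pdcd1 was at 574 and 540.2 CPM in expanded and 344 and 319.7 CPM in singlet clones, a log2 change of 0.69 (edgeR with the block, adjusted p = 1.68e-14). Cxcr6 was at 540.1 and 700.3 CPM against 238 and 237 CPM (log2 change 1.33), and Tox at 301 and 219 CPM against 119 and 92.7 CPM (log2 change 1.24). Of the coinhibitory list, 9 of 13 were higher and 1 lower, and of the cell cycle list 24 of 28 were higher and 0 lower, against 7.87% and 7.64% of all genes in this fit. Igkc and Penk had log2 changes of 2.07 and 1.64, against 3.33 and 3.41 in all cells with the block. Penk was at 157 and 102 CPM in expanded and 18.4 and 53.0 CPM in singlet clones. Igkc was at 101 and 36.6 CPM against 14.3 and 14.1 CPM, so for both genes the groups were further apart in Round 1.

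Other genes stayed low in expanded clones or turned. Il7r was at 22.1 and 42.6 CPM in expanded and 229 and 211 CPM in singlet clones, a log2 change of -2.79, nearly that in all cells, and Dapl1 was at 1.88 and 0.333 CPM against 12.3 and 34.0 CPM. Il12rb2 and Gzmm likewise kept their fall, with log2 changes of -2.99 and -2.79, and Tcf7 was at 79.0 and 68.6 CPM against 135 and 180.4 CPM (log2 change -1.18). Gzmb turned from higher to lower in expanded clones, at 208 and 264 CPM against 225 and 434 CPM (log2 change -0.52, adjusted p = 2.73e-07 with the block and 0.651 without it). The groups were close in Round 1, so the gap lay mostly in Round 2. Gzma was far lower in expanded clones, at 105 and 82.5 CPM against 471 and 653 CPM (log2 change -2.66). Of the 14 cytotoxic genes, 2 were higher and 6 lower, and of the 16 cytokine receptor subunits 10 were lower and 1 higher. Nr4a2 and Ccl5, which rose in all cells with the block, did not pass the threshold here (adjusted p = 0.101 and 0.309). The same held for Zeb2, Ifng, Cx3cr1, Ccr8, Tnfrsf4, Tnfsf10, Aurkb and Cd44. Their adjusted p-values were 0.213, 0.574, 0.0719, 0.654, 0.187, 0.0955, 0.0683 and 0.674 (edgeR with the block).

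**Figure D4:**
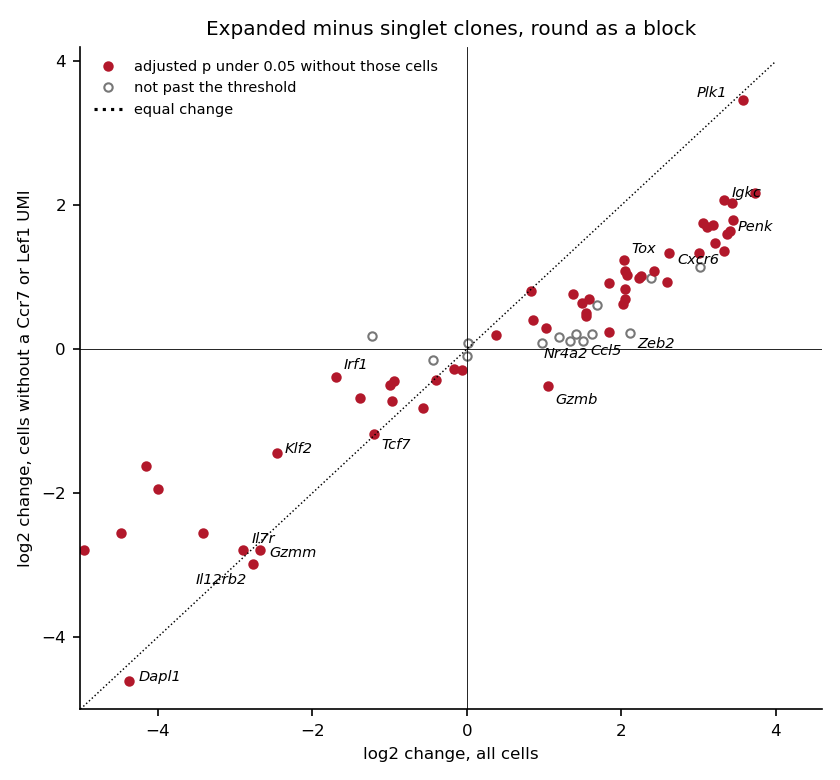
Log2 change between expanded and singlet clones of 70 named genes in all cells (horizontal axis) and in cells without a Ccr7 or Lef1 UMI (vertical axis), both with the round as a block. Red points passed the threshold in the second fit, the dotted line marks equal change, and Gzmb lies above 0 on the horizontal axis and at -0.52 on the vertical one.

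The expanded clones were not alike. Among 36 clones of 20 or more cells (11 in Round 1 and 25 in Round 2), each summed on its own, Il7r was below both singlet sums in all 36, Cxcr6 was above them in 35, and Pdcd1 and Tox in 34. These clones are part of the expanded sums, which already differed from the singlet sums in these genes. Such counts of clones, here and below for Gzmb, Penk and Igkc, were not made over all genes and are a description only. Pdcd1 ran from 92.6 to 1045 CPM over the clones of Round 1, with a median of 357 CPM, and from 37.1 to 918 CPM over those of Round 2, with a median of 416 CPM. Tigit was among the steadiest, from 274 to 726 CPM and from 430.3 to 1042 CPM. Gzmb was above both singlet sums in 22 clones and ran from 22.3 to 300.4 CPM in Round 1 and from 0 to 500.4 CPM in Round 2.

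Penk and Igkc were uneven between clones. Penk was above both singlet sums in 25 of the 36 clones and without a UMI in 9, with medians of 119 and 72.2 CPM and highest values of 390.4 CPM in R1-4 and 748 CPM in R2-14. Igkc was above both singlet sums in 26 clones and without a UMI in 9, and its highest values were 297 CPM in R1-3 (156 UMIs) and 233 CPM in R2-17 (30 UMIs). R1-1 alone gave 213 of the 629 Igkc UMIs of the expanded cells of Round 1. Single clones also stood apart in more than 1 gene. R1-10, with 20 cells, had the lowest Tox and Lag3 of Round 1, 44.2 and 53.0 CPM, together with the highest Gzmb and Gzma, 300.4 and 468 CPM. R1-9, with 22 cells, had the highest Pdcd1, Lag3 and Xcl1 of that round, 1045, 468 and 1850.3 CPM, and no cell with an Mki67 or Top2a UMI. R2-19, with 25 cells, had the lowest Pdcd1 and Tox of Round 2, 37.1 and 44.5 CPM, at 906 CPM of Cxcr6. These 3 clones rest on 100524 to 134686 UMIs each, so their low values are a few UMIs.

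**Figure D5:**
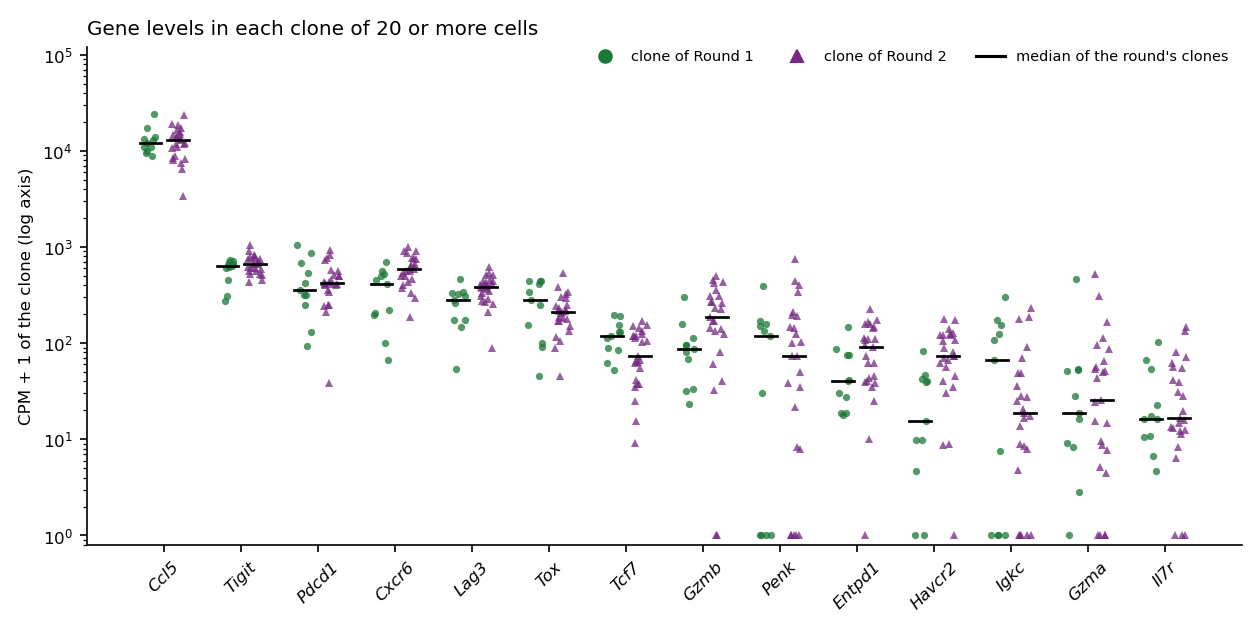
CPM plus 1 (log axis) of 14 genes in each clone of 20 or more cells, with 11 clones of Round 1 (green circles) and 25 of Round 2 (purple triangles), and the median of each round as a bar. Of the genes shown, Tigit varies least between clones, whereas Penk, Igkc, Gzma and Gzmb run from 0 or near 0 to over 200 CPM.

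The paired clones with nearly the same receptor, R2-2 and R2-12, are set side by side as a description. Penk was at 196 and 211 CPM, Lag3 at 435 and 622 CPM, Pdcd1 at 398 and 827 CPM, Cxcr6 at 540.4 and 912 CPM, Gzmb at 417 and 133 CPM and Tcf7 at 14.4 and 66.4 CPM. Penk was above the Round 2 median of the clones of 20 or more cells, 72.2 CPM, in both clones. Pdcd1 and Cxcr6 lay below their medians of 416 and 587 CPM in R2-2 and above them in R2-12. Among all expanded clones, 1 set of 4 segments in Round 1 and 3 sets in Round 2 were held by more than 1 clone (2 and 6 clones).

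Receptor features are given as a description, with no test. Median CDR3 lengths were 42 bases for both chains in expanded and singlet clones of both rounds. TRAV16N, the α segment used most, was in 16.2% and 11.2% of expanded clones and in 10.9% and 11.4% of singlet clones. TRBV3 was in 16.2% and 7.76% of expanded against 3.89% and 5.68% of singlet clones, and TRBV16 in 13.5% and 6.03% against 7.63% and 7.81%, so that the higher share of TRBV16 was seen in Round 1 alone. TRAJ18 was in 6.76% and 6.03% of expanded against 2.66% and 3.21% of singlet clones, higher in both rounds, as was TRBV3. The median β contig had 12 and 14 UMIs in cells of expanded clones and 6 and 8 UMIs in singlet cells.

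Few expanded clones were met elsewhere in the series. Within a round, 5 of 74 and 4 of 116 expanded clones had cells with the same CDR3 pair in the tetramer-positive spleen library, by 1 to 5 barcodes each, and 1 of 74 and 0 of 116 in the tetramer-positive islet library. R1-1 was among them, with 1 barcode in each of the 2 tetramer-positive libraries, and R2-1, with 5 barcodes in the spleen library. None of these barcodes occurred among the paired tetramer-negative cells of the round. Leaving out all clones with such a match removed 335 and 179 expanded cells and left 296 genes higher and 246 lower. Between rounds, and so between mice, 1 expanded clone was found again by its nucleotides, R2-8 of 45 cells, as 1 tetramer-negative cell of Round 1. Its CDR3 sequences are shown because both rounds held them.
R2-8 α: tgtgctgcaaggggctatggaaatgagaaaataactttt
R2-8 β: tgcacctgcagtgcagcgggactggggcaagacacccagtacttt

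At the level of the encoded CDR3 proteins, 2 of 74 and 5 of 116 expanded clones had their α and β pair in the tetramer-negative cells of the other round, against 8 of 1389 and 5 of 2959 singlet clones. These counts describe clones seen in 2 pools of mice, and larger clones are more easily met again.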

How the data were processed

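CD8 T cells were profiled with the 10x Genomics 5′ kit, and the deposited UMI counts per gene and cell and the contig UMI counts were made by the authors with Cell Ranger on mm10 (version 6.0 in the study's methods, 5.0.1 in the file headers). Cells were filtered, grouped by clone and summed per library and group, and the 4 sums, of 6092944 to 12209755 UMIs, were compared with edgeR 4.0.16 (filterByExpr, TMM, quasi-likelihood test, Benjamini-Hochberg adjustment, R 4.3.3). The script was tested on simulated data. Both sums of a round come from 1 pool and library, so the rounds pair them (r = 0.73 over 10822 genes), and a fit with the round as a block was an alternative. Shares, clones and figures were made with Python 3.11.15, numpy 2.4.6, pandas 2.3.3, scipy 1.17.1 and matplotlib 3.10.9. DESeq2 1.42.0 served as an alternative, and 26 settings were tried. No doublet caller was run. Cells with extra contigs were left out, which does not remove doublets of a T cell with a cell that lacks a TCR.

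Named genes were, each way, the 10 largest log2 changes among genes past the threshold (adjusted p under 0.05) whose sign agreed between rounds and whose higher group averaged 20 CPM or more, TCR segments left out, then 20 genes the study uses, then up to 3 called genes of each of 19 lists, or the 2 highest where fewer than 3 were called. Some genes and markers, and a planned setting that uses one of them, are not reported here. Members and lists were chosen with earlier results of these data known. Gene positions are from the GENCODE annotation of mm10, in which 99.6% of gene IDs matched.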

Additional observations from a re-analysis of the deposited data

How the results depend on the processing

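The counts of genes higher and lower in expanded clones, 349 and 303, moved by more than 1.5 times in at least 1 direction under the following settings. They were 2609 and 2377 with the round as a replicate block, 598 and 505 with DESeq2's test, 886 and 737 with no filter on low counts, and 552 higher with 3 size groups in 1 fit. They were 215 and 200 with clones of 2 or more cells as expanded, 148 and 110 with at most 5 cells per clone, and 207 and 167 with cells thinned to 1000 UMIs. Leaving out 1 sum at a time gave 48 to 369 higher and 77 to 328 lower. Of the settings chosen after seeing the data, total counts in place of TMM gave 198 lower, and leaving out cells with a UMI of Ccr7 or Lef1 gave 0 and 0. With the block, they were 739 and 717 without those cells, 2308 and 2117 without cycling cells, 2679 and 2468 without clones found in tetramer-positive libraries, and 2549 and 2289 without the largest clones. In the comparisons with clones of 2 to 4 cells, the block gave 1688 higher and 1339 lower against singlet clones. For expanded clones against clones of 2 to 4 cells it gave 150 and 260. For these counts the cause was not tested.

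The block brought 12 more of the 78 named genes past the threshold and changed no other call among them. Without cells with a UMI of Ccr7 or Lef1, direction was reversed for Gzmb (log2 change -0.53 without the block and -0.52 with it) and for Gbp4 (0.18 without the block and 0.18 with it). The other reversals were in 4 genes that passed the threshold neither in the reported fit nor in the reversed one. Nr4a1, at -0.0045, was at 0.17 with total counts, 0.0025 with no filter on low counts and 0.018 with clones of 2 or more cells as expanded. It was at 0.24 with at most 5 cells per clone, 0.0041 with the chain of most UMIs and 0.14 in thinned cells. Without cells with B-cell, myeloid or exocrine signal it was at 0.092. It was at 0.025 without clones found in tetramer-positive libraries and 0.029 with the block as well, and at 0.14 and 0.15 without cycling cells. Itpkb was at 0.096 with total counts and at 0.088 and 0.092 without cycling cells, Cblb at 0.000575 with total counts, and Jund at -0.16 with no upper limit on genes. Leaving out 1 sum at a time also reversed Nr4a1 (range -0.14 to 0.12), Itpkb (-0.31 to 0.21) and Jund (-0.78 to 0.78). The cause of these reversals was not tested.

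In unthinned cells, Rounds 1 and 2, Cxcr6 was found in 50.4% and 55.7% of expanded and 14.7% and 13.3% of singlet cells, and Gzmb in 17.1% and 20.9% against 7.20% and 9.53%. Ccr7 or Lef1 was found in 28.2% and 31.4% against 83.2% and 88.0%, and Mki67 or Top2a in 24.5% and 21.6% against 5.98% and 5.51%. The 2 rounds limit the precision of every test, and genes of a few CPM rest on few UMIs.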
